A study of Mus musculus with 2 samples.

Results

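The genes described here are 44 genes of DNA replication and S phase, taken as a fixed list of symbols: the proteins they encode license origins, supply nucleotides, copy DNA, repair it and rebuild chromatin behind the fork. All 44 were present among the 32227 genes of the count tables. All 44 also reached 20 counts over both libraries together, as did 15586 genes in all, and such genes are called measured. By role they fell into 11 genes of origin licensing and the helicase, 3 of nucleotide supply, 10 of DNA synthesis and the fork, 6 of repair, 12 of chromatin and histone supply, and 2 that encode a cyclin and a transcription factor. The measurement was single-cell RNA sequencing of Meta4 organoids, a dysplastic line derived from mouse stomach corpus, with 1 library of cells kept in the solvent DMSO and 1 of cells given pyrvinium, an anthelmintic drug labelled Pyr, both for 1 day. Cells of both libraries carried Mist1-CreERT2Tg/+ together with LSL-K-ras(G12D)Tg/+, both had undergone dysplasia induction, and the drug's concentration is not given in the sources used here. In this genotype a tamoxifen-inducible Cre recombinase driven by the Mist1 promoter, which in the stomach is active mainly in chief cells, switches on the K-ras allele. The data thus come from 1 line and 1 library per condition: no test was run, no difference has a replicate check, and each interval is a 95% interval that covers counting error only.

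Before S phase, the origin recognition complex and Cdc6 load the ring-shaped MCM2-7 complex onto DNA, and in S phase Cdc45 and the GINS complex turn that ring into the active helicase. Polymerases then copy both strands on the sliding clamp Pcna, while ribonucleotide reductase and thymidylate synthase supply precursors and histone chaperones package the new DNA. Many of these genes are transcribed at the G1 to S transition under E2F transcription factors, so their transcripts are widely used to mark proliferating cells, which in the gastric epithelium lie mostly in the isthmus of the gland.

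After filtering, 1602 DMSO and 854 pyrvinium cells were kept, with a median of 18592.5 and 31517 counts per cell, and 0 cell barcodes were shared between them. Of the kept counts, 2.57% and 1.63% came from mitochondrial genes and 25.2% and 29.7% from ribosomal protein genes. The 7 epithelial markers were all present in both libraries and summed to 8465 and 5602 counts per 1000000 counts of the summed cells (CPM), and 3 of them, Krt8, Krt19 and Elf3, were at least 1.5-fold lower with pyrvinium. Of 10 gastric markers 7 were measured: Pgc (5.70 and 1.998 CPM), Muc6, Gkn1 and Cblif were lower, Tff1 stood at 333 and 404 CPM, and the mucin Muc5ac had 0 and 1 counts. All 7 fibroblast markers together summed to 1.13 and 1.11 CPM. The 7 immune markers summed to 21.9 and 29.7 CPM, nearly all of it Cd68 (21.0 and 28.3 CPM), while the pan-leukocyte gene Ptprc stood at 0.350 and 0.756 CPM and Lyz2 had 0 counts. The 5 endothelial markers were all measured and summed to 44.6 and 59.6 CPM, nearly all of it Cdh5, a cadherin of endothelium (41.7 and 56.6 CPM). Pecam1 was higher, at 1.28 and 2.08 CPM, and Tek lower, at 1.05 and 0.432 CPM. Kdr stood at 0.275 and 0.243 CPM and Emcn at 0.325 and 0.297 CPM. The part of depth, of the mitochondrial share and of these markers in the results was not tested, and replication counts at equal depth are given with the single cells.

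Transcripts of the 44 genes were less abundant in the pyrvinium library at every step of replication. Summed over the list, they made up 1349 CPM (1337 to 1360) in the DMSO cells and 613 CPM (605 to 621) in the pyrvinium cells, which is 2.20-fold lower. A gene was counted as lower or higher when its ratio was at least 1.5-fold and the whole counting interval of the ratio lay on that side of 1. By this rule 38 of the 44 were lower, where 15.5% of all measured genes were, and 0 were higher, where 7.57% of all measured genes were. Of the 44, 27 were at least 2-fold lower, beside 6.73% of measured genes. The median log2 ratio of pyrvinium over DMSO was -1.17 for the list and -0.08 for all measured genes. The 6 that passed in neither direction were Cdc45, Pola1, Brip1, Usp1, Ubr7 and Wdr76. These are sums over cells, in which fewer cells in S phase and less transcript per cell cannot be told apart, so counts within single cells are given further on.

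**Figure D1:**
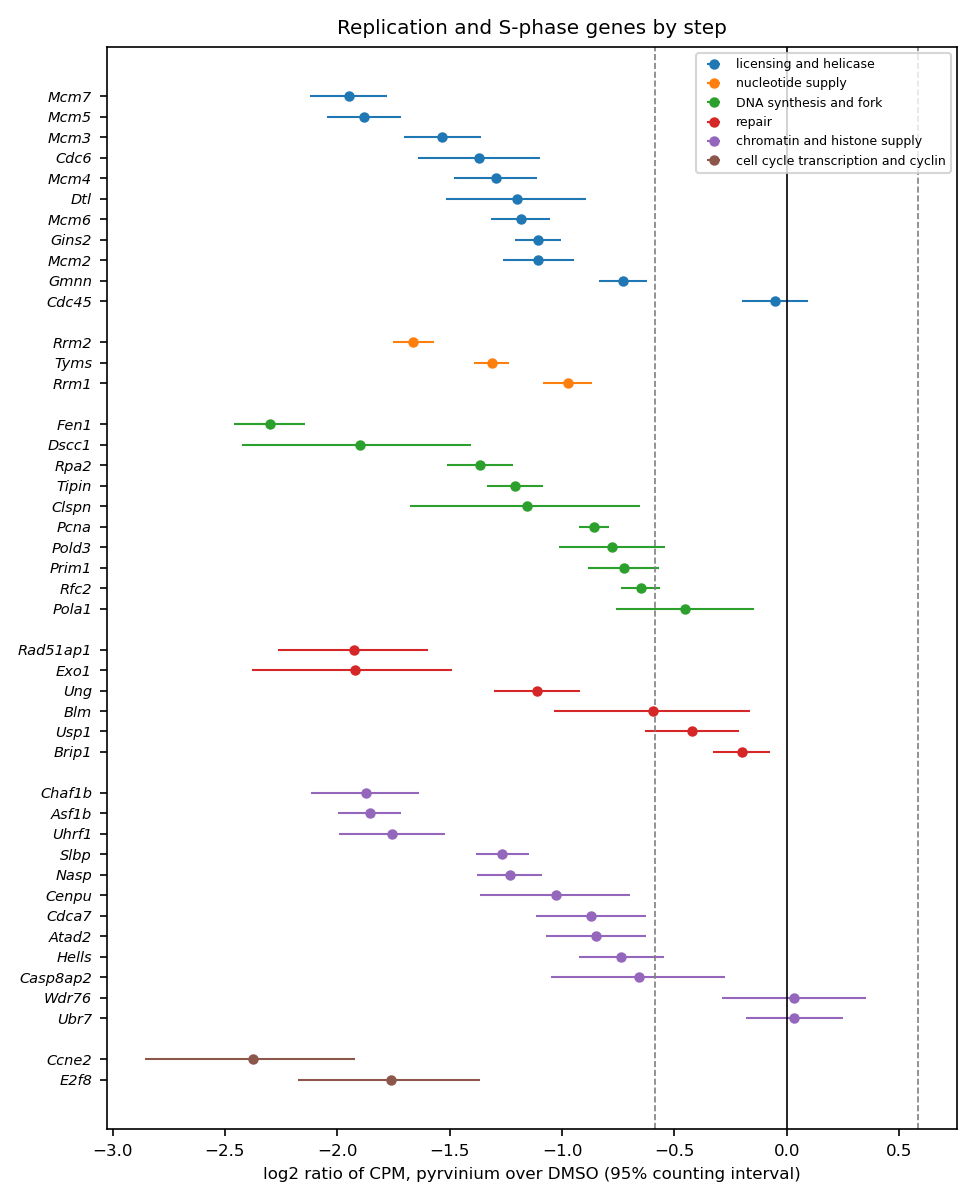
The log2 ratio of CPM, pyrvinium over DMSO, is plotted for each of the 44 genes, grouped and coloured by step, with bars for the 95% counting interval, a solid line at 0 and dashed lines at 1.5-fold. Ccne2 and Fen1 lie furthest to the left, at -2.37 and -2.30, and only the points of Ubr7 and Wdr76 lie to the right of 0.

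All 6 subunits of the MCM2-7 ring were at least 2-fold lower with pyrvinium, and together they went from 194 to 69.3 CPM, 2.79-fold lower. Mcm7 stood at 37.0 CPM (35.1 to 38.9) in the DMSO library and 9.58 CPM (8.61 to 10.6) in the pyrvinium library, a log2 ratio of -1.95 (-2.12 to -1.78). Mcm5 went from 38.0 CPM (36.2 to 40.0) to 10.3 CPM (9.33 to 11.4), a log2 ratio of -1.88 (-2.05 to -1.72). Mcm3 went from 28.9 to 9.99 CPM, a log2 ratio of -1.53 (-1.71 to -1.36). In each of these 3 subunits the intervals of the libraries were far apart. Mcm4 stood at 21.7 and 8.83 CPM, Mcm6 at 40.9 and 17.98 CPM and Mcm2 at 27.1 and 12.6 CPM, with log2 ratios of -1.30, -1.18 and -1.11. The subunits form 1 complex, yet their ratios ran from -1.95 to -1.11, and the intervals of Mcm7 and Mcm2 did not overlap. Exons of Mcm7 overlap those of Cops6 on the opposite strand, a gene with 7122 DMSO and 6267 pyrvinium counts, and whether counting used the strand is not given in the sources used here. In a GRCm38 annotation, 11 of the 44 genes have such an overlap with another gene, Ccne2, Gins2, Rfc2 and Cenpu among them.

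Of the listed genes that load the ring or control its loading, Cdc6, Dtl and Gmnn were lower. Cdc6, which loads the ring with the origin recognition complex, stood at 10.7 CPM (9.74 to 11.8) and 4.16 CPM (3.53 to 4.87), a log2 ratio of -1.37. Dtl, which directs the licensing factor Cdt1 to degradation in S phase, stood at 7.58 and 3.29 CPM, a log2 ratio of -1.20. Gmnn encodes geminin, the inhibitor of Cdt1, and was the least lowered licensing gene that passed the rule, at 48.0 and 29.0 CPM, a log2 ratio of -0.73 (-0.84 to -0.62). The 2 members that belong to the active helicase differed from each other. Gins2, a GINS subunit, went from 65.4 to 30.4 CPM, a log2 ratio of -1.11 (-1.208 to -1.005). Cdc45, its partner in the active helicase, stood at 20.1 CPM (18.7 to 21.5) and 19.4 CPM (17.99 to 20.9), and the intervals of its levels overlapped. Its log2 ratio was -0.05 (-0.20 to 0.10), and the interval of Gins2 lay wholly beneath it. Exons of Cdc45 overlap those of Ufd1 on the opposite strand, which held 1606 and 934 counts.

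The start regions of these genes were read for the sequence words that E2F proteins bind, since E2F control is the textbook feature that replication genes share and the list was not chosen by sequence. RefSeq windows of 250 bases before to 50 bases after the annotated start, on build GRCm38.p6, were found for 34 of the 44 genes. The words searched were TTTCCCGC, TTTCGCGC, TTTGCCGC and TTTGGCGC, on both strands. At least 1 was present in 14 of the 34 genes (41.2%), in 24 of 81 other genes of replication and the G1 to S step (29.6%), in 4.33% of the measured genes with a window and in 2.60% of all 27025 genes with one. Below are 230 bases, from 200 before to 30 after the start and 5′ to 3′ on the gene's strand, of the 4 genes with the lowest ratios that hold a word and of the gene with the highest ratio in the list, with the E2F words in capitals.
Mcm7, chr5:138171854-138172083, minus strand: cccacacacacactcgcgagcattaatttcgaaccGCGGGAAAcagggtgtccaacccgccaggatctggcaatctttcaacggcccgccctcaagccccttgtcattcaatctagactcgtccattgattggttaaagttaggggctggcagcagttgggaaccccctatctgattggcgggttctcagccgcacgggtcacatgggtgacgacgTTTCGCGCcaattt
Mcm5, chr8:75109309-75109538, plus strand: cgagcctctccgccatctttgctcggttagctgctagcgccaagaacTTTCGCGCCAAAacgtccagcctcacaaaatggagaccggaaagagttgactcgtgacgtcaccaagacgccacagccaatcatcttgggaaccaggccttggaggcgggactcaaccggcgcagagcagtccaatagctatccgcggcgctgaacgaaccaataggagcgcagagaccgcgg
Uhrf1, chr17:56304113-56304342, plus strand: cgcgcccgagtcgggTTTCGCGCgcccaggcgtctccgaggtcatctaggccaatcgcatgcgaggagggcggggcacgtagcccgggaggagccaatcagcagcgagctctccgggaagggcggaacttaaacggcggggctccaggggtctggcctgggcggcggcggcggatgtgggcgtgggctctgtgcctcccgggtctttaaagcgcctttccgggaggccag
Mcm3, chr1:20820283-20820512, minus strand: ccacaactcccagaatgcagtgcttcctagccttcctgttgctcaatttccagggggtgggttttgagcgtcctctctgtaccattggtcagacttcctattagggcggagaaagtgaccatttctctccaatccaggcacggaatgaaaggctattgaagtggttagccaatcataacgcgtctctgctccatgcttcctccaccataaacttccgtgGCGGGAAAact
Ubr7, chr12:102757775-102758004, plus strand: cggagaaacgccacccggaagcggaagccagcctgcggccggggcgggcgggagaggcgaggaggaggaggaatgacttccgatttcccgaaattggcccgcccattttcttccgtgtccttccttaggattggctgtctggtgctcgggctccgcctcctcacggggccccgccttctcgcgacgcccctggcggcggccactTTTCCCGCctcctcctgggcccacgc
Mcm7 holds words on both sides of the start shown, and the 2 words of Mcm5 overlap each other. Mcm7 and Uhrf1 each have another annotated start whose window holds no E2F word, and the window with the most words is shown. Mcm3 holds its words after the start, and 1 of its 2 lies beyond the stretch shown. Ubr7, whose level did not differ between the libraries by the size rule, also holds a word.

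**Figure D2:**
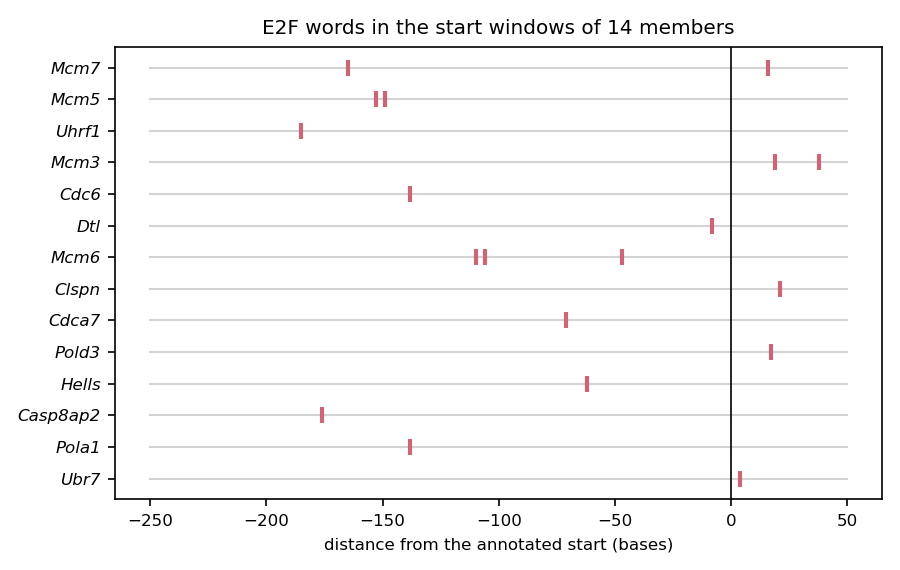
Each row is 1 of the 14 genes that hold an E2F word, ordered from the lowest log2 ratio at the top to the highest at the bottom, and each red mark is the first base of a word by its distance in bases from the annotated start. Of 19 words, 13 begin before the start and 6 after it, the furthest at 185 bases before it in Uhrf1.

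By step, the words were present in 6 of 8 licensing and helicase genes with a window, 3 of 7 synthesis genes, 5 of 11 chromatin genes, 0 of 3 nucleotide supply genes and 0 of 4 repair genes. Among genes lower with pyrvinium 12 of 29 held a word, and among those that passed in neither direction 2 of 5 did. The second kind is too small for a comparison. Fen1, Rrm2, Tyms, Asf1b and Chaf1b, all lower, held none in this window. The CCAAT word, on either strand, was present in 73.5% of the 34 genes, 43.3% of measured genes and 76.6% of the 47 genes of G2 and mitosis that have a window. E2F words were present in 6.38% of those G2 and mitosis genes. A match describes the letters in the window and not a bound site, and the absence of a match says nothing of the factor.

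All 3 nucleotide supply genes were lower, and their sum went from 293 to 114 CPM. Rrm2, the small subunit of ribonucleotide reductase that is made mainly in S phase, stood at 109.7 CPM (106 to 113) in the DMSO library and 34.7 CPM (32.8 to 36.6) in the other, a log2 ratio of -1.66 (-1.75 to -1.57). Rrm1, the large subunit, stood at 55.2 and 28.1 CPM, a log2 ratio of -0.98 (-1.08 to -0.87). Although both subunits form 1 enzyme, the small subunit was the more strongly lowered of the pair, with intervals of the ratios that did not overlap. Tyms, thymidylate synthase, went from 128 CPM (125 to 132) to 51.5 CPM (49.2 to 53.9), a log2 ratio of -1.31 (-1.39 to -1.24).

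Of the 10 genes of DNA synthesis and the fork 9 were lower, with sums of 382 and 188 CPM. Fen1, the endonuclease that trims flaps between Okazaki fragments, had the second lowest ratio of the whole list, going from 51.9 CPM (49.7 to 54.2) to 10.6 CPM (9.53 to 11.7), 4.92-fold lower. Its log2 ratio was -2.30 (-2.46 to -2.14), and its exons overlap those of Tmem258 on the opposite strand, which held 18901 and 14596 counts. Dscc1, a subunit of the clamp loader used in cohesion, was rare, at 4.23 and 1.13 CPM, with a log2 ratio of -1.90 (-2.42 to -1.40). Rpa2, of the complex that coats single-stranded DNA, went from 36.1 to 14.04 CPM, and Tipin, which travels with the fork, from 45.8 to 19.8 CPM. Their log2 ratios were -1.36 and -1.21. Clspn, the checkpoint mediator claspin, had only 113 and 47 counts, and its log2 ratio of -1.16 had an interval from -1.68 to -0.65.

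The remaining 5 genes of this step had ratios nearer 0. Pcna, the sliding clamp, stood at 130.4 CPM (127 to 134) and 71.9 CPM (69.2 to 74.7), a log2 ratio of -0.86 (-0.93 to -0.79). Rfc2, a subunit of the loader that opens the clamp, stood at 71.5 and 45.5 CPM, a log2 ratio of -0.65 (-0.74 to -0.56). Pold3, an accessory subunit of polymerase delta, stood at 10.8 and 6.29 CPM, and Prim1, the catalytic primase subunit, at 22.8 and 13.8 CPM, with log2 ratios of -0.78 and -0.73. Pola1, the catalytic subunit of polymerase alpha that works with primase, missed the size rule at 5.50 CPM (4.80 to 6.28) and 4.02 CPM (3.40 to 4.72), a log2 ratio of -0.45 (-0.76 to -0.15). The intervals of the ratios of Pcna and Fen1 did not overlap. Rfc2 missed the rule in 4 of 9 alternatives: with the total taken without mitochondrial and ribosomal protein genes (-0.58), scaled by the median of ratios (-0.57), as the mean over cells of the CPM of each cell (-0.54) and with equal cluster weights (-0.33).

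The repair genes were the most mixed: 4 of 6 were lower, and the sum went from 77.4 to 48.4 CPM. Rad51ap1, a factor of homologous recombination, stood at 9.63 and 2.54 CPM, a log2 ratio of -1.92 (-2.27 to -1.60). Exo1, an exonuclease of mismatch repair and end resection, stood at 5.53 and 1.46 CPM, a log2 ratio of -1.92 (-2.38 to -1.49). Ung, the glycosylase that removes uracil from DNA, went from 18.9 to 8.75 CPM, a log2 ratio of -1.11. These 3 were at least 2-fold lower. Blm, a helicase that dissolves recombination intermediates, was at the edge of the rule, with 119 and 73 counts and a log2 ratio of -0.60 (-1.04 to -0.16), and it missed the rule in 6 of 9 alternatives. Brip1, a helicase of the Fanconi pathway, stood at 28.7 CPM (27.1 to 30.5) and 24.995 CPM (23.4 to 26.7), a log2 ratio of -0.20. Usp1, which removes ubiquitin from Fancd2 and Pcna, stood at 11.6 and 8.69 CPM, a log2 ratio of -0.42 (-0.63 to -0.21). Both thus lay beneath 0 without reaching 1.5-fold.

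Among the 12 chromatin genes 10 were lower, and the histone chaperone genes Chaf1b and Asf1b had the lowest ratios. The sum of the 12 went from 238 to 103 CPM. Asf1b, a chaperone of histones H3 and H4, went from 51.5 CPM (49.3 to 53.8) to 14.2 CPM (13.0 to 15.5), a log2 ratio of -1.86 (-1.998 to -1.718). Chaf1b, a subunit of chromatin assembly factor 1, which takes histones over from Asf1 proteins, stood at 18.01 and 4.91 CPM, a log2 ratio of -1.87 (-2.12 to -1.64). Nasp, which stores soluble H3 and H4, went from 35.3 to 15.01 CPM, and Slbp, which binds the stem loop of histone mRNAs, from 53.7 to 22.3 CPM, with log2 ratios of -1.23 and -1.27. Casp8ap2, needed for histone pre-mRNA processing, stood at 3.88 and 2.46 CPM, and its log2 ratio of -0.66 (-1.05 to -0.28) missed the rule in 4 of 9 alternatives.

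Genes that carry DNA methylation and heterochromatin through replication were lower as well. Uhrf1, which recruits the maintenance methyltransferase to hemimethylated DNA, went from 17.4 CPM (16.1 to 18.8) to 5.16 CPM (4.45 to 5.94), a log2 ratio of -1.76 (-1.99 to -1.52). Cdca7 and Hells encode partners in a remodelling complex: Cdca7 stood at 10.5 and 5.75 CPM, a log2 ratio of -0.87, and Hells at 16.2 and 9.74 CPM, a log2 ratio of -0.74. Atad2, a bromodomain ATPase, went from 12.5 to 6.94 CPM, and Cenpu, a kinetochore subunit, from 6.05 to 2.97 CPM, with log2 ratios of -0.85 and -1.03. Ubr7, a protein of the ubiquitin ligase class, stood at 9.15 CPM (8.24 to 10.1) and 9.37 CPM (8.41 to 10.4). Wdr76, a WD repeat protein, stood at 4.25 CPM (3.64 to 4.94) and 4.35 CPM (3.70 to 5.07). Ubr7 and Wdr76 were the only members above 0, each with a log2 ratio of 0.03 and an interval that spanned 0.

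The cyclin and the transcription factor of the list were both lower. Ccne2, cyclin E2, which with Cdk2 starts S phase, had the lowest ratio of all 44 genes, at 6.58 CPM (5.81 to 7.42) and 1.27 CPM (0.932 to 1.69), 5.19-fold lower. Its log2 ratio was -2.37 (-2.85 to -1.92), and it became -1.75 among cells of the same range of counts in both libraries. E2f8, an atypical E2F that represses E2F targets late in S phase, stood at 6.13 and 1.81 CPM, a log2 ratio of -1.76 (-2.17 to -1.37).

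Other genes of these pathways, 101 that are not in the list, were also mostly on the lower side of 0. Of them 52 were lower and 2 higher, where 15.5% and 7.57% of all measured genes were. The median over all 101 was -0.63 on the log2 scale, beside -0.08 for all measured genes. Their sum, in which a few abundant genes weigh most, went from 5579.6 to 5050.3 CPM, a log2 ratio of -0.14. By role, 16 of 25 other synthesis and fork genes were lower, 11 of 19 licensing and firing genes, 5 of 9 chromatin assembly genes, 7 of 15 genes of E2F and the G1 to S step, 7 of 16 nucleotide supply genes and 6 of 17 repair and checkpoint genes. The lowest of the better expressed genes in the synthesis group were Lig1, the ligase that seals Okazaki fragments after Fen1, at 20.6 and 6.24 CPM, and Pclaf, a Pcna-binding factor, at 77.2 and 24.1 CPM. Pold4, a small subunit of polymerase delta, was instead 2.06-fold higher, at 72.8 and 149.8 CPM, while its partner Pold3 was lower. Among licensing genes, Orc6 went from 37.0 to 19.1 CPM and Gins4 from 24.5 to 13.5 CPM, whereas Orc5 stood at 226 and 318 CPM, a log2 ratio of 0.49. The sum of these 19 genes was slightly higher with pyrvinium, at 436 and 473 CPM. Named after their values were seen, Orc2 (0.12), Orc3 (0.17) and Orc4 (0.44) also had log2 ratios above 0, Orc1 was lower at -1.88, and Cdt1 missed the rule at -0.45. The other clamp loader subunits, named in the same way, were Rfc3 (-1.19), Rfc4 (-1.18) and Rfc5 (-1.31), all lower, and Rfc1 (-0.30), which missed the rule. Subunits of 1 complex could therefore lie on opposite sides of 0.

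Among nucleotide supply genes, Umps, of pyrimidine synthesis, went from 35.1 to 15.8 CPM. Rrm2b, the p53-inducible counterpart of Rrm2, stood at 642 and 863 CPM, a log2 ratio of 0.43 where that of Rrm2 was -1.66. Ccne1, the other E-type cyclin, went from 17.0 to 7.15 CPM and Ccna2, the cyclin of S phase progression, from 36.4 to 17.4 CPM. The Cdk inhibitor Cdkn1a stood at 839 and 1083 CPM, a log2 ratio of 0.37 that missed the rule. Only 5 of the other repair and checkpoint genes reached 10 CPM in a library. Among these 5, Atrip had the lowest ratio (11.03 and 6.24 CPM) and Palb2 the highest (36.7 and 38.4 CPM). In the chromatin group, Hmgb2 went from 338 to 154 CPM and Lmnb1 from 27.9 to 13.6 CPM, while Ezh2, a histone methyltransferase, was 1.54-fold higher, at 52.9 and 81.7 CPM.

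**Figure D3:**
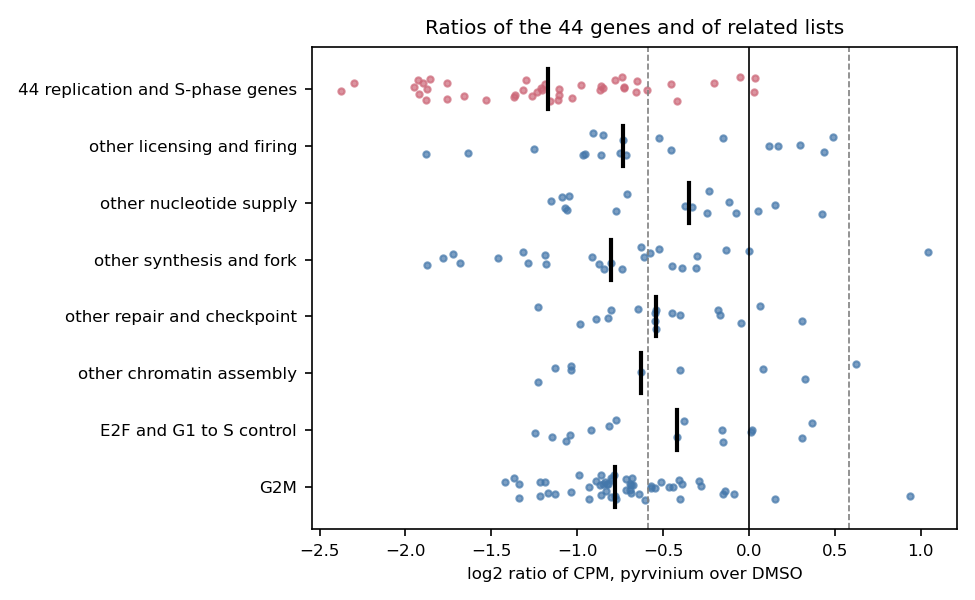
Each point is 1 gene's log2 ratio of CPM, pyrvinium over DMSO, for the 44 genes (red) and for related lists (blue), with a black bar at each list's median and dashed lines at 1.5-fold. The median of the 44 is -1.17, and those of the other lists lie between -0.80 and -0.35.

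Genes of G2 and mitosis were lower in the same library. Of 54 in a standard list, none of them a member, 38 were lower and 1 was higher, where 15.5% and 7.57% of all measured genes were. Their median was -0.78 on the log2 scale. The lowest were Kif23 (22.8 and 8.53 CPM), Birc5 (148 and 57.5 CPM) and Pimreg (12.2 and 4.80 CPM), and the highest was Psrc1 (53.7 and 103 CPM). At the 2-fold level the counts were 27 of 44 replication genes and 10 of 54 G2 and mitosis genes, beside 6.73% of measured genes. The difference between the lists was not tested.

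Counts in single cells showed where the lower sums lay. Every kept cell was reduced by random drawing to 5000 counts, a depth that all of them reached, and the 44 genes were added up. A DMSO cell then held a mean of 6.39 member counts and a pyrvinium cell 3.11. The median was 5 and 2, the upper quartile 9 and 4, and the highest cell had 37 and 26. Cells with none of the 44 transcripts made up 7.24% of DMSO and 11.9% of pyrvinium cells. The distribution was thus lower over its whole range and not only in its upper tail. In barcodes with 100 to 500 counts, read as free RNA, the 44 genes made up 1432 and 674 CPM, so the libraries' free RNA differed in the same direction as their cells.

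**Figure D4:**
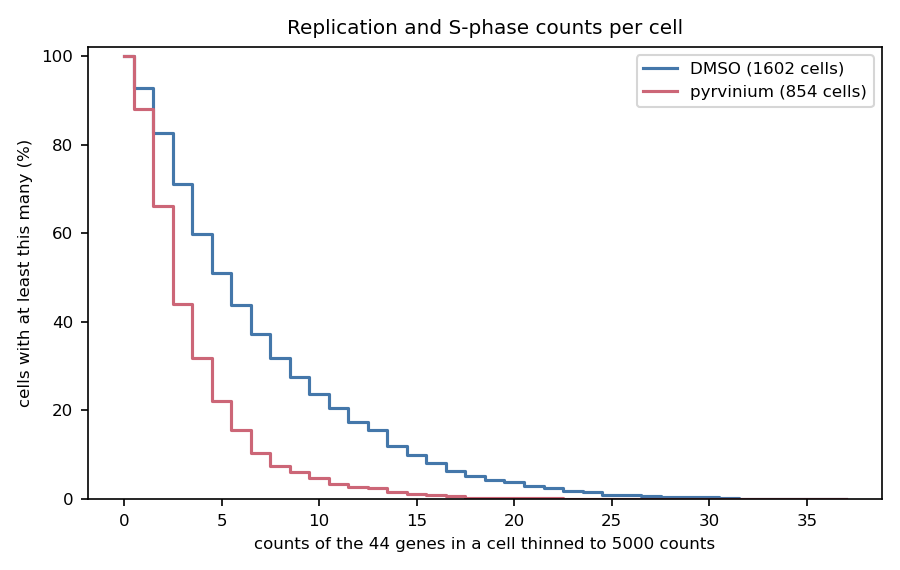
For each number of counts of the 44 genes in a cell thinned to 5000 counts (horizontal axis), the curve gives the percent of cells with at least that many, for 1602 DMSO cells (blue) and 854 pyrvinium cells (red). The pyrvinium curve runs beneath the DMSO curve, and the medians are 2 and 5 counts.

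Cells with many replication transcripts were rare in the pyrvinium library. To mark them, 22 of the genes set a limit of 7 thinned counts, the smallest that at most 10% of DMSO cells reached, and the other 22 genes were read beside it. The limit was reached by 127 of 1602 DMSO cells, 7.93% (exact Clopper-Pearson interval 6.65 to 9.36), and by 7 of 854 pyrvinium cells, 0.820% (0.330 to 1.68). A second random thinning gave 8.36% and 1.76%, so the size of the pyrvinium share is known only roughly, although it lay beneath the DMSO share in both draws. The class is a range of counts and not a cell type: 163 DMSO and 14 pyrvinium cells lay within 1 count of the limit. In cells at or above it, the 22 genes that had not set it averaged 10.2 counts (9.60 to 10.7) with DMSO and 7.71 (5.80 to 10.1) with pyrvinium, intervals that overlap. In the remaining cells they averaged 3.36 (3.27 to 3.46) and 1.80 (1.71 to 1.89). The difference was therefore also present among cells outside the class. These still include many cells rich in replication transcripts: clusters 2 and 6, described further on, held 522 and 166 DMSO cells but 50 and 36 pyrvinium cells. Among the remaining cells, too, fewer cells in S phase and less transcript per cell cannot be told apart. With the roles of the gene sets exchanged, the limit was 10 counts and the shares were 9.36% and 0.937%.

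Cells rich in G2 and mitosis transcripts were marked in the same way. A limit of 39 thinned counts of those genes was reached by 154 DMSO cells (9.61%) and 24 pyrvinium cells (2.81%, 1.81 to 4.15). These cells held a mean of 8.12 counts of the 44 genes (7.68 to 8.59) with DMSO and 8.25 (7.14 to 9.48) with pyrvinium, intervals that overlap, and medians of 7 and 6. In the cells beneath that limit the means were 6.20 (6.07 to 6.33) and 2.96 (2.84 to 3.08). The difference in means was thus present beneath the limit, and above it none was detectable with 24 pyrvinium cells. Beneath it, fewer cells in S phase and less transcript per cell again cannot be told apart. Cluster 6, which is rich in the same transcripts (described with the clusters), did show fewer replication counts with pyrvinium.

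The share of cells with at least 1 count is given for the 2 best expressed genes of each step, after thinning. No cell type that should lack these genes was at hand, so the share in the cluster with the fewest such cells is set beside it, each with DMSO first. That cluster also expresses replication genes and for most of these genes is, with pyrvinium, cluster 1, which holds 486 of the 854 cells, so it is no background level. Asf1b was found in 19.6% of DMSO cells (17.7 to 21.6) and 5.39% of pyrvinium cells (3.97 to 7.12), and in the lowest clusters in 3.13% and 3.70%. Tyms was found in 37.2% (34.8 to 39.6) and 19.0% (16.4 to 21.8), Rrm2 in 35.2% (32.9 to 37.6) and 17.3% (14.8 to 20.04), and Gins2 in 25.3% (23.2 to 27.5) and 11.7% (9.63 to 14.1). The lowest clusters held 8.46% and 13.4% for Tyms, 22.8% and 13.0% for Rrm2, and 5.96% and 7.61% for Gins2. Slbp was found in 21.2% (19.2 to 23.2) and 11.9% (9.84 to 14.3), with 7.84% and 8.85% in the lowest clusters. For each of these genes the DMSO interval lay above that of the pyrvinium cells, as it did for every gene that follows except Brip1. Pcna was the most widely found, in 39.6% (37.2 to 42.1) and 28.1% (25.1 to 31.2), with 20.7% and 25.9% in the lowest clusters. Rfc2 followed with 25.2% and 18.5% (lowest clusters 11.6% and 17.5%) and Gmnn with 19.5% and 12.9% (13.2% and 10.5%). Ung was found in 8.18% and 4.22% (0.602% and 2% in the lowest clusters). Brip1, at 8.86% (7.52 to 10.4) and 7.49% (5.82 to 9.47), had overlapping intervals, with 4.39% and 5.90% in the lowest clusters. Ccne2 and E2f8 were found in few cells, 2.81% and 2.68% with DMSO and 0.703% and 0.820% with pyrvinium, and the lowest DMSO cluster held 0.627% and 0.940%. Without thinning the deeper pyrvinium cells held more genes, and Pcna was found in 76.6% and 80.0% and Asf1b in 43.5% and 26.8%.

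The cells were also clustered without any gene of the member, related, G2 and mitosis or histone lists, so that the members did not define the clusters. Cell cycle genes outside these lists, such as Kif22, Prc1 and Plk1, were not removed, so cycling may still shape the clusters. Ratios within a cluster may then compare cells that are alike in cycling, which was not tested. The 6 clusters were shared unequally: cluster 1, led by Dusp4 and Gdf15, held 205 DMSO and 486 pyrvinium cells, cluster 5, led by Atf5 and Slc12a2, 12 and 271, and cluster 4, with Ndrg1 among its leading genes, 319 and 0. Cluster 3, led by Fosb and Ifitm1, held 378 and 11. The clusters richest in replication transcripts were cluster 2, led by Asf1b, Tyms and Birc5 among all genes, with 522 and 50 cells, and cluster 6, led by Kif22, Prc1 and Plk1, with 166 and 36. A cluster held mostly by 1 library may be that library rather than a kind of cell, so the shares are given as counts only.

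Within clusters many members were lower, and the median ratio was nearer 0 than in the sums. Clusters 1, 2 and 6 had at least 30 cells of each library. In cluster 1 the mean thinned count was 4.43 with DMSO and 2.47 with pyrvinium, and 31 members were lower and 0 higher (19.4% and 8.53% of measured genes). In cluster 2 the means were 9.21 and 6.52, and 25 members were lower and 0 higher (12.8% and 5.69%). In cluster 6 the means were 9.19 and 6.11, and 17 members were lower and 2 higher (11.8% and 15.1%). The median log2 ratio was -0.87 in cluster 1, -0.76 in cluster 2 and -0.58 in cluster 6. The cells of these clusters were deeper with pyrvinium, with median counts of 29846 against 19839, 26793 against 20603 and 26799 against 19730, and the means above are at equal depth.

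**Figure D5:**
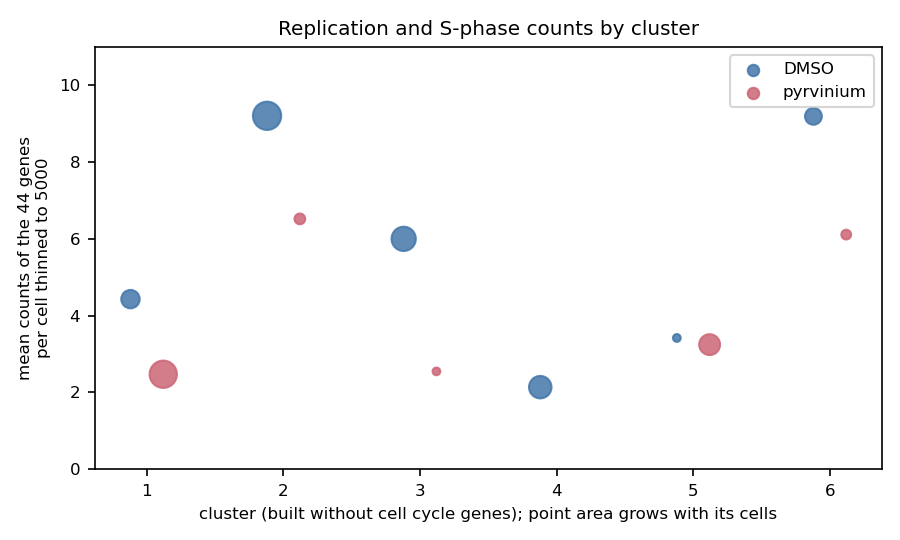
For each of 6 clusters (horizontal axis) the mean count of the 44 genes per cell thinned to 5000 counts is plotted for DMSO (blue) and pyrvinium (red), with a point area that grows with the number of cells. The pyrvinium point is the lower of the pair in clusters 1, 2, 3, 5 and 6, nearly level in cluster 5 (3.42 and 3.24), and cluster 4 has no pyrvinium cells.

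Lower in all 3 of these clusters were 13 members: Mcm3, Mcm5, Mcm6, Mcm7, Rpa2, Fen1, Ung, Exo1, Rad51ap1, Chaf1b, Asf1b, Nasp and Uhrf1. Lower in none of the 3 were 8: Blm, Clspn, Prim1 and Rfc2, which were lower in the sums, and Cdc45, Pola1, Ubr7 and Wdr76, which were not. How many of all measured genes were lower in all 3 clusters, or in none, was not counted. In clusters 1, 2 and 6 taken singly, 19.4%, 12.8% and 11.8% of measured genes were lower. In cluster 1 some ratios were lower than in the sums, such as those of Rrm2 (-1.88) and Mcm4 (-1.55). Fen1 went from 27.2 to 5.38 CPM in cluster 1, from 74.7 to 27.6 CPM in cluster 2 and from 89.2 to 25.6 CPM in cluster 6, log2 ratios of -2.34, -1.43 and -1.80. Chaf1b had log2 ratios of -2.01, -1.31 and -1.95 in the same order, and Mcm5 of -1.46, -1.23 and -1.47. The ratios of these 3 genes were thus beyond 2-fold in each cluster, and for Fen1 so were the whole intervals. The intervals of Chaf1b in cluster 2 (-2.06 to -0.65) and of Mcm5 in cluster 2 (-1.70 to -0.80) and cluster 6 (-2.03 to -0.96) also held smaller differences. Ung was lowest in cluster 2, at 26.2 and 2.66 CPM, a log2 ratio of -3.30 (-4.93 to -2.06). That pyrvinium value comes from 50 cells and very few counts, so its size is known only roughly. Pcna differed from them: it was lower in cluster 1, at 96.7 and 61.2 CPM, but stood at 176 and 147 CPM in cluster 2 and at 161 and 133 CPM in cluster 6, within 1.5-fold. Tyms stood at 211 and 166 CPM in cluster 2, within 1.5-fold, and was lower in clusters 1 and 6. Cdc45 and Brip1 were the members counted as higher in cluster 6, Cdc45 at 24.7 and 39.3 CPM, a log2 ratio of 0.67 (0.20 to 1.13), and Brip1 at 17.6 and 28.1 CPM, also 0.67 (0.11 to 1.22). In cluster 2 Brip1 was lower, at 42.1 and 24.99 CPM.

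When clusters 1, 2 and 6 were given equal weight, 26 members were lower, beside 19.1% of measured genes, and the median log2 ratio was -0.69. The 12 that no longer passed were Cdc6 (-0.40), Gmnn (-0.16), Dtl (-0.55), Rrm1 (-0.34), Prim1 (-0.24), Pold3 (-0.24), Pcna (-0.35), Rfc2 (-0.33), Clspn (-0.12), Blm (0.08), Hells (-0.39) and Cenpu (0.03). Of the genes that still passed, Mcm7 moved to -1.01, Mcm3 to -0.94, Rrm2 to -0.81, Fen1 to -1.70, Asf1b to -0.85, Uhrf1 to -0.96, Dscc1 to -1.27, Exo1 to -1.30 and Rad51ap1 to -1.19. Ung, whose value in cluster 2 rests on very few pyrvinium counts, moved the other way, to -1.70. Of the 38 lower members, 25 were lower by the rule in every one of the 9 alternative ways of choosing, scaling and weighting the cells. The share of all measured genes that were lower in every alternative was not counted.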

How the data were processed

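Organoid cells were captured and lysed by the PIPseq method and libraries made with its T2 kit, per the labels' protocols. The submitters' processing notes name Partek and the genome build GRCm39. The sources used here give no aligner, counter, annotation, strand setting or use of molecular identifiers. The deposited matrices hold whole-number counts per gene and barcode, not normalized by the authors, over 331629 DMSO and 353485 pyrvinium barcodes. Barcodes with at least 9320 (DMSO) or 13100 (pyrvinium) counts and 500 genes, and at most 20% mitochondrial counts, were kept as cells, which held 39980497 and 37046673 counts. Doublets were not removed: Scrublet called 4 and 2 cells, so an alternative left out the 5% with the highest scores.

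Counts were summed over cells and scaled to counts per 1000000 (CPM), with exact Poisson 95% intervals and exact conditional binomial intervals for ratios. The ratio code was tested on simulated data. Thinning drew 5000 counts per cell at random. Shares carry exact Clopper-Pearson intervals. Clusters came from the Leiden algorithm at resolution 0.5, over 2000 variable genes, 30 principal components and 15 neighbours, on values scaled within each library (scanpy 1.11.5, leidenalg 0.10.2, scipy 1.17.1). Start windows are RefSeq's on GRCm38.p6, another build than that of the counts.

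The members and lists were chosen with earlier results of these data known. All members are named, with, of each other list, the 2 genes of lowest and the 1 of highest ratio at 10 CPM or more in a library (for G2 and mitosis, 3 and 1). A few genes taken this way are not reported here. Cell shares are of the 2 members of each step with the highest DMSO CPM. The bounds of the common count range (13154 to 46187) and the promoter stretch shown were set after the data were seen. Ratios of single members in the high class are not given, as 7 and 8 pyrvinium cells are too few.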

Additional observations from a re-analysis of the deposited data

How the results depend on the processing

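The alternatives were lower cell thresholds, other scalings, removal of high doublet scores, subtraction of 10% free RNA and a common range of counts (1036 and 566 cells). Over these, between 35 and 38 of the 44 genes were lower and 0 were higher, with medians from -1.17 to -1.06. Of all measured genes, between 12.5% and 16.3% were lower in the same settings, with medians from -0.10 to 0.002. Equal weights for clusters 1, 2 and 6 moved the most: 26 members were lower, beside 19.1% of measured genes, and their median was -0.69. G2 and mitosis genes counted as lower went from 38 to 5 of 54, and Blm (0.083), Cenpu (0.033) and Cdc45 (0.20, from -0.05) changed sign. In that setting the intervals were kept at the width of the summed counts, which is too narrow. At the 2-fold level, 26 of the other replication genes (52 at 1.5-fold) and 10 G2 and mitosis genes were lower, beside 6.73% of measured genes. Another random thinning raised the share of pyrvinium cells in the high class from 0.820% to 1.76%; thinning to 9000 counts gave 1.64%. The cause of these moves was not tested. A minimum of 100 counts over both libraries together could change no call of a member, since all 44 reached it. Members under 10 CPM, such as Clspn, Blm and Casp8ap2, are limited by depth. No paired analysis was possible because each group has 1 library.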

Other observations

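Histone genes, which were not part of the 44 and whose replication-dependent members are made in S phase as mRNAs without a poly(A) tail, were not mostly lower. Of 64 histone genes 53 were measured, of which 8 were lower (15.5% of all measured genes were), 10 higher (7.57%) and 35 neither, with a median log2 ratio of 0.05. The 8 lower ones were all H2A genes, such as H2ac23 at 10.98 CPM (9.98 to 12.1) in the DMSO library and 5.18 CPM (4.48 to 5.97) in the other, and H2ac24 at 10.4 and 4.86 CPM. Linker histone genes were among the higher ones: H1f2 stood at 23.8 CPM (22.3 to 25.4) and 67.6 CPM (65.0 to 70.3), 2.84-fold higher, H1f4 at 1.03 and 5.07 CPM and H1f3 at 0.525 and 3.83 CPM. H2ac23 was richer in barcodes with 100 to 500 counts, at 39.5 CPM with DMSO, than in cells. Many histone genes are near-identical copies, and how the counting treated reads shared between copies is not given in the sources used here, so single values are uncertain.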
